A study of Caenorhabditis elegans with 4 samples.

Results

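The col genes of Caenorhabditis elegans, the largest family of cuticle collagen genes in this nematode, were compared between mutant and wild-type worms. The family was taken as every gene of the deposited count table whose symbol is col- followed by a number, which gave 156 of the 20182 genes listed. All 156 are annotated as protein-coding. The mutant group carried the cey-1 (rrr12) and cey-4 (ok858) alleles together, and the wild-type group was the standard laboratory strain N2. Each group had 2 libraries of total RNA from whole worms, raised on OP50 bacteria and harvested as young adults, so every value below mixes all tissues of the animal. The lysates were also used for ribosome profiling, which is not analysed here. Nothing in the labels states that the replicates are separate cultures. The p-values therefore measure the spread between these libraries, which may be technical.

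The cuticle is the collagen-rich outer coat that the epidermis (hypodermis) secretes anew for every larval stage and for the adult. Cuticle collagens are short secreted proteins with interrupted Gly-X-Y repeats, which assemble into trimers in the endoplasmic reticulum, are trimmed by proteases and are cross-linked in the extracellular space. Different col genes are used in different coats, and heterochronic regulators such as the zinc-finger factor lin-29 set which are on in the adult. The mutated genes, cey-1 and cey-4, encode proteins of the Y-box family, which bind RNA through a cold-shock domain.

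The mutant libraries held 33009708 and 24717311 counts and the wild-type libraries 29773406 and 31311497. The alleles were checked by their own transcripts. cey-4 had 338 and 280 counts in the mutant, against 23072 and 23781 in wild type, a log2 fold change of -6.18 ± 0.118 (SE). cey-1 had 723 and 609 counts in the mutant, against 4218 and 4042 in wild type, a log2 fold change of -2.57 ± 0.110. The wild-type libraries stood further apart from each other than the mutant ones, with a chi-square per degree of freedom of 28.7 between wild-type replicates and 8.56 between mutant replicates. The 6 epidermal markers of a fixed list were all detected, with a summed level of 2103 and 2263 CPM (counts per 1000000, after TMM scaling) in the mutant and 1647 and 1634 CPM in wild type. Of these 6 markers, vab-10, a spectraplakin of the epidermal attachment structures, was called higher, with a log2 fold change of 0.52, and 0 were called lower. vab-10, with 24099 exon bases, supplied 1487 and 1661 CPM of the sum in the mutant and 1128 and 1069 CPM in wild type. It was not called with a trend on exon length removed (log2 fold change 0.04, adjusted p = 0.801) or without mutant replicate 2 (0.103), and with that trend removed the median log2 fold change of the 6 markers was 0.10 in place of 0.33. Markers of body wall muscle were called higher for 3 of 5 genes, of pharynx for 2 of 3 and of intestine for 2 of 5. Those of sperm were called higher for 4 of 4, and 13.1% of all genes tested were called higher. Not all of these marker calls held when a single library was left out. In either direction, 0 of 5 neuronal and 0 of 5 germline markers were called, beside 26.4% of all genes tested. The part of tissue make-up in the collagen results was not tested, and in whole-worm RNA fewer epidermal cells and less RNA per cell cannot be told apart.

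Transcripts of the col family made up a smaller share of the counts in both mutant libraries than in either wild-type library. They took 4.07% and 3.84% of all counts in the mutant libraries, against 4.34% and 5.03% in the wild-type libraries. The means were 3.95 ± 0.160% in the mutant and 4.69 ± 0.487% in wild type (SD, n = 2 each), a difference of -0.735 percentage points. The Wilson 95% interval, which covers counting error only, ran from 3.83% to 3.85% in the mutant library with the lowest share and from 5.02% to 5.04% in the wild-type library with the highest. Without wild-type replicate 2, the library with the highest share, the difference was -0.391 points, and without wild-type replicate 1 it was -1.08 points. With 2 libraries a group no test was made of this share.

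Of the 156 col genes, 101 had enough counts to be tested with edgeR's quasi-likelihood test. The mutant had higher transcript counts for 11 of them and lower counts for 26 at a Benjamini-Hochberg adjusted p under 0.05. Among all 13944 genes tested, 13.1% were called higher and 13.3% lower (26.4% in either direction), against 10.9% and 25.7% of the tested col genes (36.6% in either direction). The share of col genes called higher was thus near that of all genes, while the share called lower was above it. Negative fold changes were seen in 68 tested col genes and positive ones in 33, and their median log2 fold change was -0.18, beside -0.01 over all genes tested. The groups did not overlap for 69 of the 101 col genes (68.3%), near the 64% of all genes tested. Of these 69, 48 were lower and 21 higher in the mutant, with no such split given here for all genes.

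Most changes were modest in size. Among the tested col genes, 10 (9.90%) were called with a fall of more than 2-fold and 3 (2.97%) with a rise of that size, beside 2.05% and 3.58% of all genes tested. The share of such rises was thus near that of all genes. The median log2 fold change was -0.80 for the 26 lower genes and 0.65 for the 11 higher ones. The col genes are short, with a median exon length of 1017 bases among those tested, against 1420 bases over all genes tested, and a trend of fold change on exon length was fitted across all genes. With that trend removed, 24 of the 26 lower calls and all 11 higher calls were made again, col-19 and col-8 were no longer called, and the median log2 fold change of the col genes was -0.05. Over all genes, 13.7% were then called higher and 10.05% lower. Leaving out a single library kept the sign of all 37 calls, but not the calls themselves. The number of col genes called varied widely between these fits, as did the number over all genes, so it is not read as a result about the family. In such fits the lone library of a group is assumed to vary like those of the other group. In all 4 of these fits 8 genes were called lower, col-92, col-94, col-95, col-149, col-150, col-166, col-167 and col-180, and 0 were called higher. Every other one of the 37 calls was lost in at least 1 of them.

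**Figure D1:**
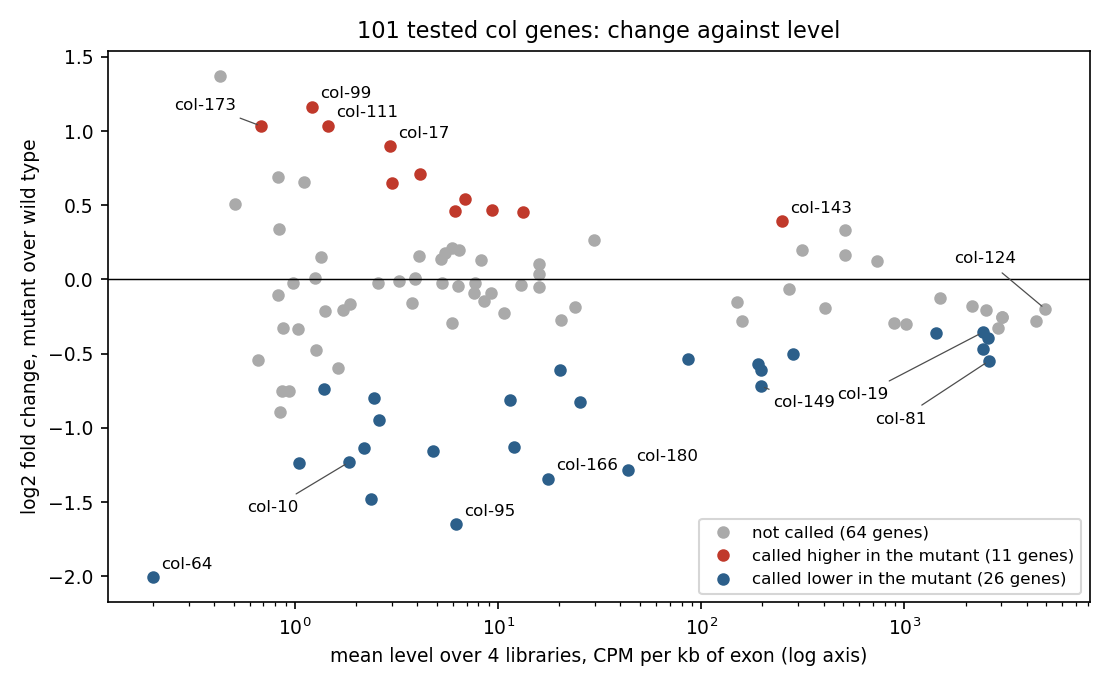
Log2 fold change (mutant over wild type) of the 101 tested col genes against their mean level over the 4 libraries, in CPM per kb of exon on a log axis. Each point is a gene; 26 genes called lower lie below the line at 0 and 11 called higher above it, and at 100 CPM per kb or more 23 of 28 genes are negative.

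Levels within the family were very uneven. Per kb of exon, the tested col genes ran from 0.2 to 4929 CPM per kb with a median of 6.87, so the highest was 718 times the median. The 8 genes with the highest levels held 61.4% of col counts in each mutant library and 62.4% in each wild-type library. The top 20 held 94.7% to 94.8% in the mutant and 94.6% to 94.7% in wild type. At 100 CPM per kb or more, 9 of 28 tested col genes were called lower (32.1%) and 1 higher (3.57%). Lower calls were frequent among all genes of this level too, with 30.3% lower and 4.503% higher, so the abundant col genes were near their background. From 10 to 100 CPM per kb, 7 of 16 col genes were called lower (43.8%) and 1 higher, beside 16.7% lower and 10.2% higher over all genes of that level. From 1 to 10 CPM per kb, 9 of 44 were called lower (20.5%) and 8 higher (18.2%), beside 10.5% and 19.5% over all genes. Below 1 CPM per kb 1 of 13 col genes was called in each direction (7.69%), beside 3.55% lower and 9.36% higher over all genes of that level.

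All 8 of the most abundant col genes had a lower mean in the mutant, and 2 of them passed the test. The highest, col-124, reached 4705 and 4475 CPM per kb in the mutant, against 4789 and 5746 CPM per kb in wild type. It is WBGene00000698, on chromosome IV from 10216451 to 10217617 in the WBcel235 annotation used for all positions here. The groups did not overlap, but its log2 fold change of -0.20 ± 0.119 was not called (edgeR adjusted p = 0.251). Its exons share 71 bases with those of qns-1, so reads there are uncertain. Next came col-119, with 4188 and 3832 CPM per kb in the mutant and 4521 and 5201 CPM per kb in wild type (log2 fold change -0.28 ± 0.112, edgeR adjusted p = 0.0962). The next genes of the top 8, col-181, col-20, col-140 and col-139, had log2 fold changes of -0.32 to -0.21 and adjusted p-values of 0.0575 to 0.209 (edgeR). For these genes the data do not show a change and do not show that there was none.

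Only col-81 and col-129 of the top 8 passed the test. col-81 had 2155 and 2068 CPM per kb in the mutant, against 2839 and 3344 in wild type, a log2 fold change of -0.55 ± 0.110 with an edgeR adjusted p of 0.00504. col-129 had 2223 and 2239 CPM per kb in the mutant, against 2847 and 3027 in wild type, a log2 fold change of -0.40 ± 0.100 with an edgeR adjusted p of 0.0149. Both wild-type libraries were above both mutant libraries for each gene. col-81 (WBGene00000657) lies on chromosome II from 11012397 to 11013767, and col-129 (WBGene00000703) on chromosome IV from 12108734 to 12110439. Neither gene was called when either mutant library was left out, with adjusted p-values of 0.0955 and 0.156 for col-81 and of 0.206 and 0.251 for col-129. Among the 28 genes at 100 CPM per kb or more, the 9 called lower were col-81, col-129, col-19, col-106, col-8, col-142, col-179, col-149 and col-133, and their fitted falls ran from 21.9% to 39.2%. Only col-143 was called higher among these 28 genes. The wild-type libraries also differed from each other in this abundant set. In wild-type replicate 2, 25 of 28 genes were higher than in wild-type replicate 1, whereas 10 of 28 were higher in mutant replicate 2 than in mutant replicate 1.

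**Figure D2:**
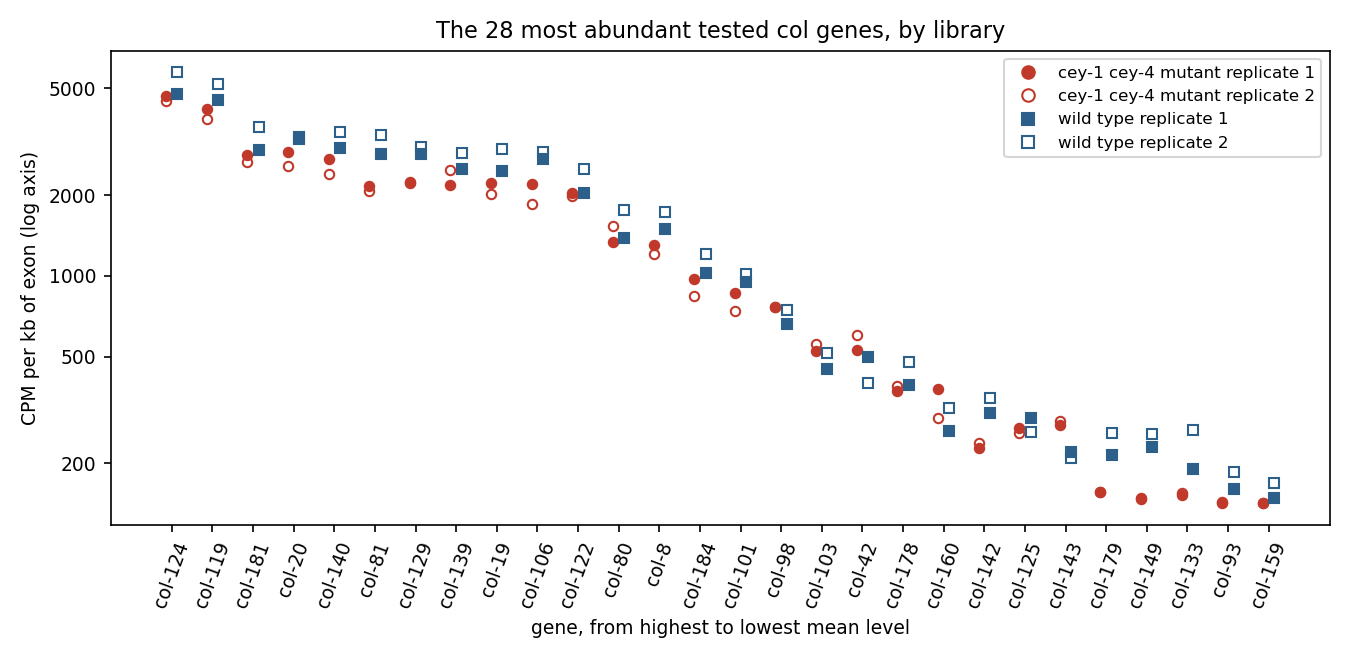
Level of the 28 tested col genes at 100 CPM per kb of exon or more in each library, on a log axis, with genes ordered by mean level. Red circles are mutant and blue squares wild-type libraries, open symbols are replicate 2, and near-equal values lie on top of each other; the wild-type squares lie above the mutant circles for all of the 9 genes called lower.

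The same spread was seen in medians over the family. Taken over the 101 tested col genes, the median log2 difference was -0.05 for mutant replicate 1 against wild-type replicate 1 and -0.16 for mutant replicate 2 against it. Against wild-type replicate 2 these medians were -0.23 for mutant replicate 1 and -0.29 for mutant replicate 2. Within groups, replicate 2 differed from replicate 1 by a median of -0.08 in the mutant and of 0.17 in wild type. All 4 medians between groups were thus negative, but the distance of 0.17 between the wild-type libraries was larger than both medians against wild-type replicate 1. It was smaller in size than both medians against wild-type replicate 2.

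Of the 8 largest falls by the rule used here, 7 were in genes below 100 CPM per kb. The first was col-95, which had 3.17 and 3.14 CPM in the mutant, against 8.59 and 11.2 CPM in wild type. Its log2 fold change was -1.65 ± 0.175 (edgeR adjusted p = 0.000297). col-166 had 8.97 and 9.07 CPM in the mutant, against 17.8 and 27.9 CPM in wild type (-1.34 ± 0.190 on the log2 scale, edgeR adjusted p = 0.000888). In both genes the mutant libraries were almost equal and the spread lay between the wild-type libraries. col-95 (WBGene00000670) lies on chromosome III from 11703994 to 11705091, and col-166 (WBGene00000739) on X from 6280016 to 6280921. col-180 (WBGene00000753, on X from 11711378 to 11712280) had the smallest p-value of the family. It had 22.9 and 22.9 CPM in the mutant, against 56.1 and 55.2 CPM in wild type, a log2 fold change of -1.28 ± 0.0986 with an edgeR adjusted p of 7.27e-05.

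Further falls lay in runs of neighbouring col genes on chromosomes III and V. col-94 had 9.45 and 5.68 CPM in the mutant, against 14.9 and 18.6 CPM in wild type, a log2 fold change of -1.13 ± 0.206 with an edgeR adjusted p of 0.00315. col-92, which lies close to it, had 20.8 and 15.8 CPM in the mutant and 30.7 and 34.6 CPM in wild type (log2 fold change -0.83 ± 0.139, edgeR adjusted p = 0.00218). Both overlap the span of dhc-4 without sharing exon bases with it. col-144 had 2.78 and 3.22 CPM in the mutant, against 5.18 and 8.11 CPM in wild type (-1.16 ± 0.224, edgeR adjusted p = 0.00419), and was the least stable of these falls, with adjusted p-values of 0.0753 and 0.0512 without mutant replicate 1 and 2.

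The adjacent genes col-149 (WBGene00000722) and col-150 (WBGene00000723), 693 bases apart on the minus strand of chromosome V, were both called lower. col-149 had 155 and 154 CPM in the mutant, against 239 and 269 CPM in wild type, a log2 fold change of -0.72 ± 0.0939 with an edgeR adjusted p of 0.00062. col-150 had 8.73 and 8.06 CPM in the mutant, against 13.98 and 15.5 CPM in wild type, a log2 fold change of -0.81 ± 0.129 with an edgeR adjusted p of 0.00166. In both genes every wild-type library was above every mutant library.

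Other genes called lower by more than 2-fold, named after their values were seen, had few counts. col-167 had 43 and 24 counts in the mutant against 78 and 116 in wild type (log2 fold change -1.48), col-177 had 37 and 17 against 58 and 74 (-1.24), and col-169 had 48 and 25 against 66 and 100 (-1.13). The lowest fold change of the family, -2.01 for col-64, rested on 1 and 5 counts in the mutant and 12 and 14 in wild type, and col-64 shares 75 exon bases with mom-4. It was not called with DESeq2, or without mutant replicate 1 (adjusted p = 0.295).

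Rises were fewer and, apart from that of col-143, lay in genes below 100 CPM per kb. Only 6 called genes with a mutant mean no lower than 5 CPM rose with groups that did not overlap. col-143 had 283 and 292 CPM in the mutant, against 225 and 213 CPM in wild type, a log2 fold change of 0.39 ± 0.0880 with an edgeR adjusted p of 0.00849. col-109 had 6.37 and 5.36 CPM in the mutant, against 3.41 and 3.78 CPM in wild type (log2 fold change 0.71 ± 0.168, edgeR adjusted p = 0.011). In both genes each mutant library was above each wild-type library. The other 4, col-107, col-73, col-97 and col-71, had log2 fold changes of 0.45 to 0.54 and adjusted p-values of 0.0286 to 0.0356 (edgeR). None of these 6 genes was called without mutant replicate 1, and without mutant replicate 2 only col-109 was, with an adjusted p of 0.0378. With DESeq2, 7 of the 101 tested col genes were called higher, beside 10.1% of all genes tested. Of the 6 genes, col-73, col-97 and col-107 were not among those called with DESeq2.

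Besides col-17 and col-99, which are described below, the remaining rises were col-111, col-173 and col-113, again named after their values were seen. col-111 had 91 and 71 counts in the mutant against 42 and 40 in wild type (log2 fold change 1.04), col-113 had 136 and 98 against 68 and 87 (0.65), and col-173 had 30 and 29 against 16 and 14 (1.03). Reads of col-111 are uncertain where its exons share 60 bases with psr-1, and those of col-113 where its exons share 34 bases with C34D4.4. Of the 11 genes called higher, 5 share exon bases with another protein-coding gene, as do 6 of the 26 called lower and 22 of the 101 tested. The sources used here do not state whether strand was used in counting.

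**Figure D3:**
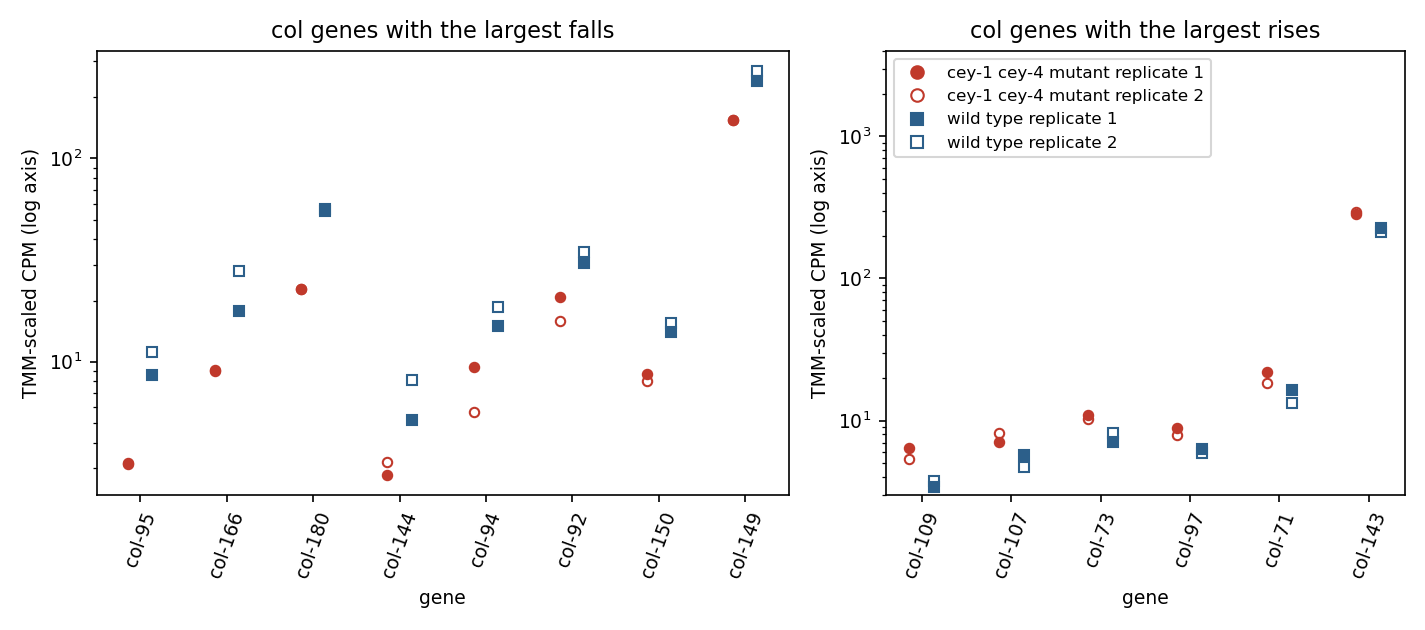
CPM of the 8 col genes with the largest falls and the 6 with the largest rises among called genes whose higher group averaged 5 CPM or more, per library, on a log axis. Red circles are mutant and blue squares wild-type libraries, open symbols are replicate 2, and near-equal values lie on top of each other, as for col-180, with 22.9 CPM in both mutant libraries.

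Genes with a known stage or function did not move as a block. col-19, an adult cuticle collagen that lin-29 activates, had 2076 and 1887 CPM in the mutant, against 2299 and 2777 CPM in wild type. Its log2 fold change of -0.36 ± 0.116 passed the threshold narrowly (edgeR adjusted p = 0.0439) and did not pass it without mutant replicate 1 (0.189), without mutant replicate 2 (0.448), without wild-type replicate 2 (0.129) or with the length trend removed (0.161). col-17, a larval collagen that lin-29 represses, moved the other way. It had 4.07 and 4.31 CPM in the mutant, against 1.88 and 2.60 CPM in wild type, a log2 fold change of 0.90 ± 0.201 with an edgeR adjusted p of 0.00865, which was not called without mutant replicate 1 (0.0583) or 2 (0.0751). Transcripts of lin-29 itself, looked up after the col values were seen, stood at 7.57 and 8.70 CPM in the mutant and 6.68 and 7.98 CPM in wild type, and were not called (log2 fold change 0.14, edgeR adjusted p = 0.528). col-7, also an adult collagen under lin-29, had 1 count in mutant replicate 1 and 0 in the other libraries, and could not be compared.

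col-99 encodes a transmembrane collagen, unlike the secreted collagens of the cuticle. It had 5.17 and 4.76 CPM in the mutant, against 2.76 and 1.70 CPM in wild type, a log2 fold change of 1.16 ± 0.222 with an edgeR adjusted p of 0.00397. Without mutant replicate 1 the adjusted p was 0.0631. Its exons share 108 bases with those of daf-1, so part of its reads is uncertain.

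Genes tied to lifespan by overexpression, col-10, col-13 and col-120, did not share a result. col-10 had 1.08 and 1.05 CPM in the mutant, against 2.05 and 2.95 CPM in wild type, a log2 fold change of -1.23 ± 0.260 with an edgeR adjusted p of 0.0065, not called without mutant replicate 1 (0.0707) or 2 (0.0766). col-120 had 6.31 and 4.71 CPM in the mutant and 6.14 and 7.498 CPM in wild type, so the groups overlapped (-0.30 ± 0.179, edgeR adjusted p = 0.258). col-13 and col-12, neighbours that encode nearly identical proteins, had log2 fold changes of -0.21 ± 0.252 and -0.02 ± 0.281, and reads may be split between them. Without wild-type replicate 2 both were positive, at 0.13 for col-13 and 0.30 for col-12, so neither has a direction here.

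Many col genes lie next to another. With a gap of at most 5 kb, a limit set after the data were seen, 50 of the 156 lay in 21 runs of up to 5 genes. Of 17 adjacent pairs with both genes tested, 12 had the same sign. Of all 101 tested col genes 68 were negative, and of the 37 called 26 were lower. Pairs taken anywhere in the family would thus often share a sign. Whether neighbours do so more often was not tested. In 4 adjacent pairs both genes were called, and the direction was shared in 3 of these 4. Besides col-149 and col-150 these were col-95 and col-96 on chromosome III, with log2 fold changes of -1.65 and -0.61, and col-141 and col-142 on chromosome V, with -0.95 and -0.51. The remaining pair ran opposite ways, since col-142 fell, with 235.1 and 244.4 CPM in the mutant against 318.5 and 362.3 CPM in wild type, while col-143, 3378 bases further along the same strand, rose. A run on chromosome II was mixed too. There col-17 and col-73 rose, and col-20, which lies between them, had 2891 and 2558 CPM in the mutant and 3217 and 3289 CPM in wild type (log2 fold change -0.26, edgeR adjusted p = 0.1).

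**Figure D4:**
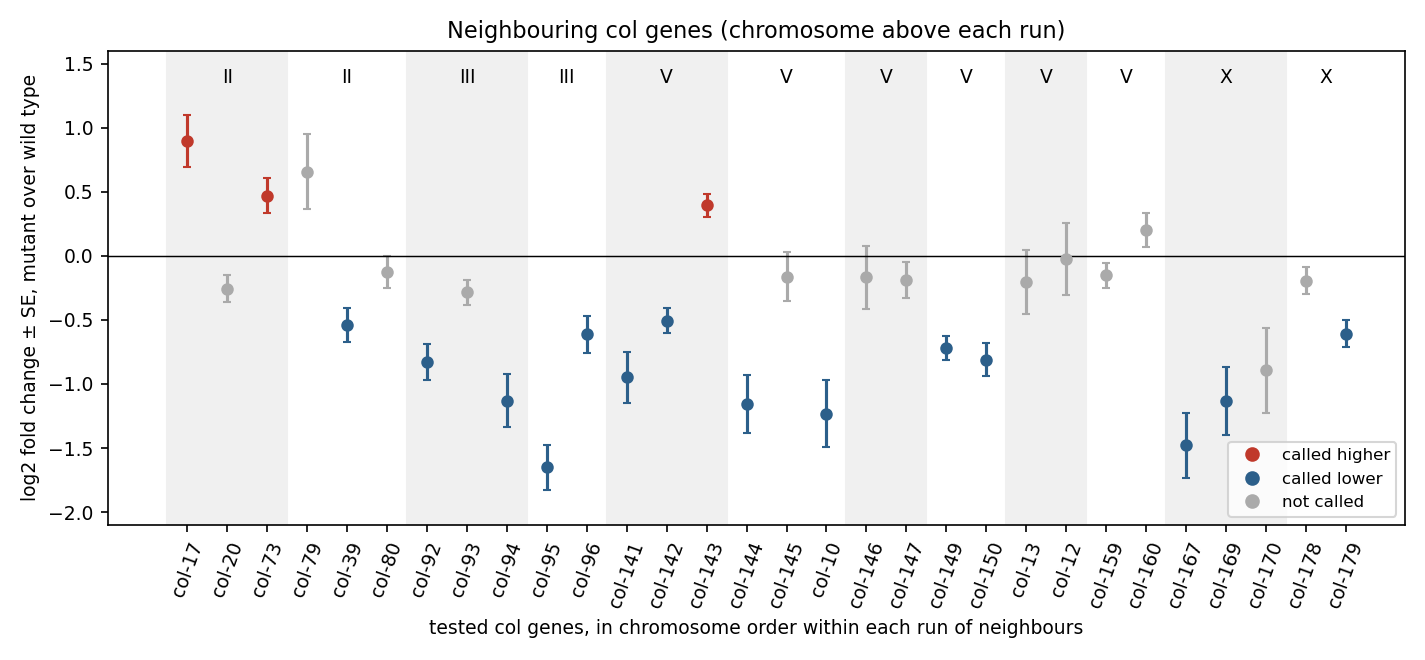
Log2 fold change (mutant over wild type, bars ± SE) of tested col genes that lie within 5 kb of another tested col gene, in chromosome order, with each run of neighbours shaded in turn and its chromosome written above it. Neighbours share a direction in 12 of 17 pairs, while 68 of all 101 tested col genes are negative. The genes col-142 and col-143 are the pair called in opposite directions.

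By chromosome, falls were most frequent on X. There 16 of 27 col genes were tested, 8 were called lower and 1 higher, and the median log2 fold change was -0.67. Of all X genes tested, 15.5% were called lower and 8.48% higher. The 8 falls on X were those of col-19, col-166, col-167, col-169, col-177, col-179, col-180 and col-186. Chromosome III had 5 lower and 1 higher calls among 12 tested col genes, beside 13.99% lower and 11.9% higher calls over all genes there. Chromosome V had 7 lower and 1 higher calls among 25 col genes, beside 13.9% and 11.3% over all genes. On chromosome IV the 26 col genes were near the background, with 3 called lower (11.5%) and 5 higher (19.2%) beside 12.96% and 16.4% of all genes, and 15 had a negative and 11 a positive fold change. Chromosome II had 2 lower and 3 higher calls of 12, with 6 genes of each sign, beside 13.6% and 14.3% over all genes. Chromosome I had 1 lower and 0 higher calls of 10, beside 12.04% and 14.5% over all genes.

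The 55 col genes that were not tested had at most 33 counts summed over the 4 libraries. Of these genes 15 were listed at 0 in every library and 12 had 1 to 3 counts in all. A count of 0 allows up to 3 counts per library, or 0.0909 to 0.121 CPM in the mutant and 0.0958 to 0.101 CPM in wild type. Of the 15 genes at 0, 10 lay in runs of neighbours, such as col-3 beside col-117, col-126 beside col-127, and col-168 and col-171 in the run on X that also holds col-167, col-169 and col-170. The sources used here do not state how reads that match several copies were counted, and a listed 0 does not show that a gene was silent.

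None of the listed collagen genes outside the col family was called lower. Of 19 tested cuticle collagens with dpy, sqt, rol, bli or lon names, 2 were called higher (10.5%, beside 13.1% of all genes tested). Lower calls numbered 0, beside 13.3% of all genes tested, and among so few genes this is not read as a difference. The median log2 fold change of the 19 was 0.26. lon-3 had 4.49 and 4.88 CPM in the mutant, against 3.24 and 3.17 CPM in wild type (log2 fold change 0.54, edgeR adjusted p = 0.0347). rol-6 had 4.31 and 4.07 CPM in the mutant, against 2.73 and 3.11 CPM in wild type (0.52, edgeR adjusted p = 0.049). Neither passed without mutant replicate 1 or mutant replicate 2, nor lon-3 without wild-type replicate 2 (0.0736), nor rol-6 without wild-type replicate 1 (0.149), and with DESeq2 0 of the 19 were called higher. Their summed level was 125 and 116 CPM in the mutant and 94.1 and 110.2 CPM in wild type. None reached the level of the abundant col genes, and the highest, dpy-5, averaged 30.8 CPM per kb. The median log2 fold change of col genes was -0.02 from 1 to 10 CPM per kb and -0.25 from 10 to 100.

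Of 3 basement membrane collagens, 2 rose. emb-9, a type IV collagen chain, had 1387 and 1569 CPM in the mutant, against 765 and 831 CPM in wild type, a log2 fold change of 0.89 ± 0.103 with an edgeR adjusted p of 0.000402. let-2, the other type IV chain, had 1713 and 1938 CPM in the mutant, against 900 and 966 CPM in wild type (0.97 ± 0.103, edgeR adjusted p = 0.000297). Both were called in each of the 4 fits that left out a library. The third gene of this list, the collagen XV/XVIII-like cle-1, had a log2 fold change of -0.03 ± 0.106 with an edgeR adjusted p of 0.847. Body wall muscle, which makes much of the type IV collagen, had 3 of its 5 markers called higher, with a summed level of 9255 and 9454 CPM in the mutant and 6619 and 6969 CPM in wild type. These calls, of unc-54, myo-3 and unc-15, were each lost without mutant replicate 1 (0.0636 to 0.0956) or mutant replicate 2 (0.0809 to 0.154), and that of myo-3 also with the length trend removed (0.189). The markers unc-27 (log2 fold change -0.26, edgeR adjusted p = 0.13) and tnt-2 (0.13, edgeR adjusted p = 0.336) were not called. unc-54 supplied 5947 and 6114 CPM of the sum in the mutant and 3818 and 4071 CPM in wild type. The part of muscle in the rise of both chains was not tested.

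Genes that fold, process, export or cross-link collagen were called lower for 4 of 27 (14.8%) and higher for 0, beside 13.3% and 13.1% of all genes tested. Their median log2 fold change was -0.12. The count of lower calls was thus at the background. fkb-3, a prolyl isomerase of the endoplasmic reticulum, had 22.7 and 20.6 CPM in the mutant, against 29.8 and 32.4 CPM in wild type (log2 fold change -0.52, edgeR adjusted p = 0.00679). dpy-31, a metalloprotease that trims cuticle procollagens, had 25.7 and 23.7 CPM in the mutant, against 30.6 and 33.2 CPM in wild type (-0.37, edgeR adjusted p = 0.0281). The peroxidases skpo-1 and skpo-3 had log2 fold changes of -0.43 and -0.33. Without mutant replicate 2, 0 of these 4 genes were called, and without mutant replicate 1 only fkb-3 was. Without wild-type replicate 2, dpy-31 (0.0752) and skpo-3 (0.172) were not. The other 23 tested genes of this list, among them the prolyl hydroxylases and disulphide isomerases, were not called.

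Cuticlins, the insoluble cuticle proteins, were called higher for 1 of 15 and lower for 1. cut-4 had 2.84 and 2.54 CPM in the mutant, against 4.88 and 5.16 CPM in wild type (log2 fold change -0.89, edgeR adjusted p = 0.00404), and cutl-18 had a log2 fold change of 0.45. Without mutant replicate 2 neither was called, with adjusted p-values of 0.0589 and 0.107, and without mutant replicate 1 cutl-18 was not (0.0598). Moulting and apical matrix genes were called higher for 5 of 25 and lower for 2 (8%), with a median log2 fold change of -0.04, beside 13.1% and 13.3% of all genes. Among them qua-1, a hedgehog-related protein needed for moulting, had 10.3 and 8.18 CPM in the mutant, against 4.57 and 3.91 CPM in wild type (1.13 on the log2 scale, edgeR adjusted p = 0.0011). The patched-related ptr-4 had a log2 fold change of 0.91, the lipocalin lpr-3 of 0.85, and the kinase nekl-3 of -0.80. nekl-3 was not called without mutant replicate 2 (0.0841), and lpr-3 was called in none of the 4 fits that left out a library (0.0534 to 0.238).

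Regulators of cuticle collagen and epidermal stage were called higher for 5 of 28 (17.9%) and lower for 0, beside 13.1% and 13.3% of all genes tested. Their median log2 fold change was 0.21. elt-1, a GATA factor that specifies the epidermis, had 12.6 and 12.9 CPM in the mutant, against 5.83 and 7.47 CPM in wild type (log2 fold change 0.94, edgeR adjusted p = 0.00157). lin-14, a heterochronic factor of early larval stages, had 23.9 and 27.2 CPM in the mutant, against 15.4 and 14.7 CPM in wild type (0.76, edgeR adjusted p = 0.00137). Both were called in each of the 4 fits that left out a library. The heterochronic factor hbl-1 and the BMP pathway genes sma-9 and sma-10 had log2 fold changes of 0.32 to 0.41, and with the length trend removed none of these 3 was called. Each of the 3 also lost its call without mutant replicate 2 (0.0938 to 0.14).

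**Figure D5:**
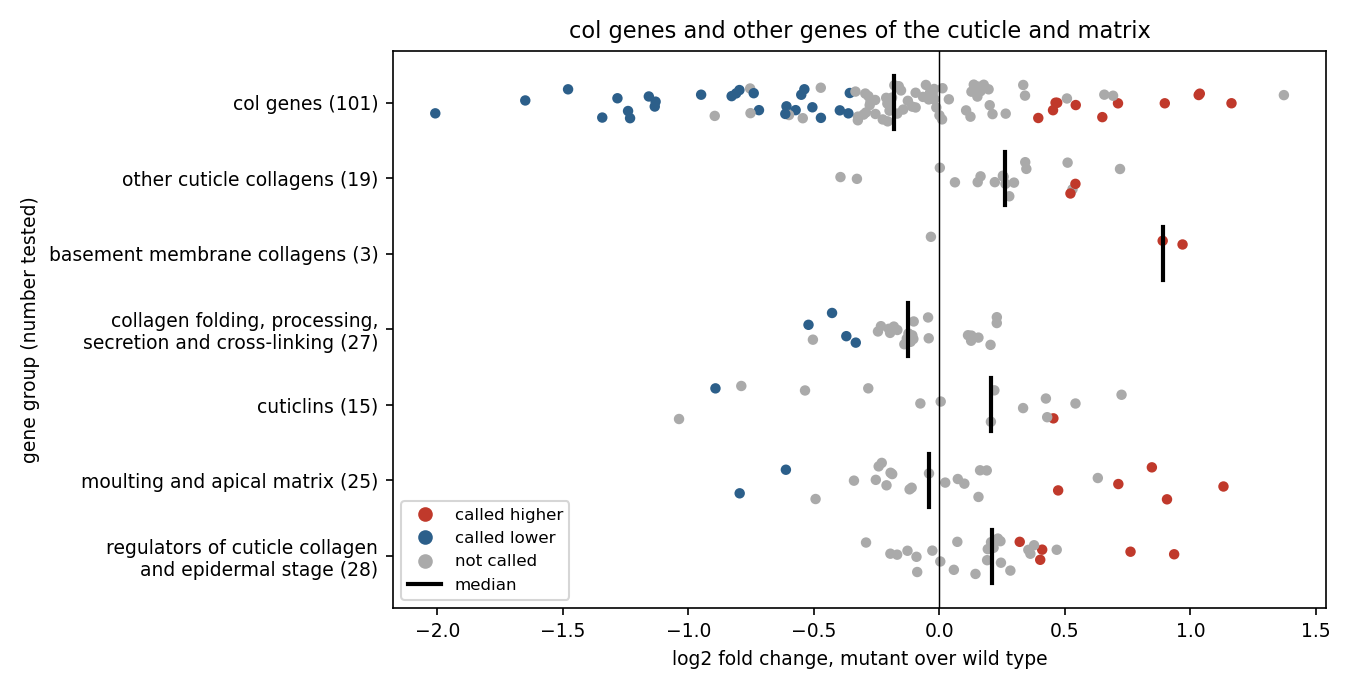
Log2 fold change (mutant over wild type) of every tested gene in the col family and in 6 lists of other cuticle and matrix genes, with the number tested in brackets and a black bar at each median. The col median lies at -0.18, that of the other cuticle collagens at 0.26 and that of the basement membrane collagens at 0.89.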

How the data were processed

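Per the labels' protocols, whole-worm total RNA was extracted with Trizol and sequenced from ScriptSeq v2 libraries. The authors deposited raw counts per gene. They also deposited log2 values, which match the counts after scaling to a common total and adding 8 (largest gap 0.000512, minimum 3). The sources used here name no aligner, counter, genome build or strand setting. Gene symbols came from a name table matched by gene ID (18778 of 20182 genes), and positions, overlaps and merged exon lengths from the Ensembl annotation of WBcel235, in which all 156 col genes were found. Neither GC content nor similarity between copies was checked.

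The test was the quasi-likelihood F test of edgeR 4.0.16 in R 4.3.3, on the counts, with filterByExpr, TMM scaling (factors 0.985 to 1.01) and Benjamini-Hochberg adjustment over all 13944 genes tested, at 0.05. The biological coefficient of variation was 0.0857. Standard errors were derived from F (the size of the log2 fold change over the root of F). CPM are TMM-scaled, and CPM per kb are divided by exon length. Alternatives were DESeq2 1.42.0, limma 3.58.1 on the deposited log2 values, other scalings and filters, a replicate block, removal of a lowess trend on exon length, and leaving out each library. The scripts were tested on simulated data.

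The members, gene lists and tests were chosen with earlier results of these data known. The col genes named in full are the 8 with the highest level per kb, the 8 largest falls and up to 8 largest rises among called genes with groups that do not overlap and a higher group averaging 5 CPM or more, and 8 genes with a known role. Of each other list, called genes were named, at most the 4 with the largest change.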

Additional observations from a re-analysis of the deposited data

How the results depend on the processing

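No called gene among those named by the rule changed sign in any alternative. Of those not called, col-12 turned from -0.02 to positive with the length trend removed (0.055), with library size alone (0.0042), with limma (0.0235), without a filter on low counts (0.0037), with a replicate block (0.0054) and with both block and trend (0.0815). Leaving out each library put col-12 at -0.2738 to 0.3002, col-13 at -0.4672 to 0.1278 and cle-1 at -0.1551 to 0.0993. With DESeq2, 7 col genes, 0 other cuticle collagens and 3 regulators were called higher, beside 10.1% of all genes tested. With the length trend removed, the median log2 fold change of the col genes was -0.0529. In that fit 4 other cuticle collagens and 2 regulators were called higher, and 1 regulator was called lower. Over all genes tested, 13.7% were then called higher and 10.05% lower. Without a filter on low counts the col median was -0.0698 and 2 cuticlins were called in each direction. The labels do not say that replicate numbers pair the libraries, and deviations of libraries with the same number correlated at -0.131 over 9536 genes. With a replicate block, 12 col genes were called higher and 23 lower, other cuticle collagens called higher numbered 1 and cuticlins called lower 2. With the numbers crossed, an alternative chosen after seeing the data, the block gave 13 higher and 31 lower col genes. With the block and the length trend removed together, the col median was -0.0561, 6 other cuticle collagens, 3 cuticlins and 3 regulators were called higher, and 2 cuticlins and 1 regulator lower. Shares over all genes are not given for the fits with a block or without a filter, so those counts have no background beside them. Leaving out each library gave 1 to 11 col genes called higher, 9 to 40 lower, and medians of -0.2892 to -0.1027. Over all genes it gave 829 to 2067 higher and 361 to 2322 lower calls. Calls higher ranged from 0 to 5 for other cuticle collagens, 0 to 1 for collagen folding and processing genes, 0 to 2 for cuticlins, 3 to 4 for moulting genes and 2 to 7 for regulators. Calls lower ranged from 0 to 5 for collagen folding and processing genes, 0 to 2 for cuticlins, 1 to 3 for moulting genes and 0 to 1 for regulators. The cause was not tested. With 2 libraries a group, the parts of depth and of the spread between libraries were not told apart.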
